A study of Homo sapiens with 36 samples.

Results

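The genes described here are 7 keratins of epithelial cells, KRT7, KRT8, KRT18, KRT19, KRT20, KRT23 and KRT80, taken by symbol from a table of 60675 genes and followed through all 36 RNA-seq libraries of 2 human cell lines. HT29 is a colorectal adenocarcinoma line and SW1783 is an astrocytoma line, and both were treated for 24 h. Each line was run in batches named A and B. In batch A, 3 libraries came from vehicle-treated cells and 3 from cells given wortmannin, a phosphoinositide 3-kinase inhibitor, at 10 µM. In batch B, 3 libraries came from vehicle-treated cells and 3 from each of the low (20 µg/mL), medium (100 µg/mL) and high (500 µg/mL) doses of a water extract of Aconitum carmichaeli Debeaux (ACD), which the sample labels name by its herbal drug title, Aconiti Lateralis Radix Preparata. The labels give the vehicle as 0.1% DMSO. The design text gives 2% DMSO, which in the methods is the content of the PBS used as vehicle, before it met the culture medium. Each line is a single established culture line without any edited allele, and each treatment was compared with the vehicle libraries of its own line and batch. Per the methods, the lines were grown in different media, HT29 alone with added carbon dioxide, and were plated at different densities. Differences between the lines cannot be told apart from these conditions.

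Keratins are the intermediate filament proteins of epithelial cells. They form obligate pairs of an acidic type I protein with a basic type II protein, and the filaments are anchored to desmosomes and hemidesmosomes. KRT8 (type II) and KRT18 (type I) are the founding pair of simple, single-layered epithelium. KRT19 (type I) joins them in ducts and gut, KRT20 (type I) marks differentiated intestinal epithelium, and KRT7 (type II) marks many ductal and glandular epithelia but is usually low in the colon. KRT23 (type I) and KRT80 (type II) are less studied keratins found in several epithelia. Astrocytes use other intermediate filaments, mainly GFAP and vimentin.

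On GRCh38 the type II genes lie on chromosome 12 and most of the type I genes on chromosome 17. KRT7 (ENSG00000135480) spans chr12:52232520-52252186 on the plus strand, KRT8 (ENSG00000170421) chr12:52897187-52949954 on the minus strand, and KRT80 (ENSG00000167767) chr12:52168996-52192014 on the minus strand. KRT18 (ENSG00000111057) is the type I gene that lies beside KRT8, at chr12:52948871-52952906 on the plus strand, and the annotated ends of KRT8 and KRT18 overlap on opposite strands. KRT19 (ENSG00000171345), KRT20 (ENSG00000171431) and KRT23 (ENSG00000108244) lie on the minus strand at chr17:41523617-41528308, chr17:40875889-40885242 and chr17:40922700-40937646. KRT7 also overlaps KRT86 on its own strand and KRT7-AS on the other, KRT80 overlaps LINC00592 and KRT23 an unnamed gene, each on the other strand. The strand setting of the counting was not given in the sources used here, so reads from overlapping genes could not be told apart.

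KRT20 separated the lines most, and its promoter is therefore shown. It comes from the RefSeq promoter table (GRCh38.p14), which matched 2 of the 7 genes, and covers the 250 bases before the annotated start on the minus strand, chr17:40885243-40885492, written 5′ to 3′. The capitals mark CATAAA, a run of 6 letters that begins 29 bases before the start and resembles the core promoter box named after its letters.
KRT20: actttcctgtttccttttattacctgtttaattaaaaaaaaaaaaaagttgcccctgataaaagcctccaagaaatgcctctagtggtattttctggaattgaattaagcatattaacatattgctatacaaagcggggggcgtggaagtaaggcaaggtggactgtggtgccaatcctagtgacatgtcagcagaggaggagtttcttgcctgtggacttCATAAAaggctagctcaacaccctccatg
The run CATAAA or its reverse complement TTTATG occurred in 3386 of the 35116 promoter windows of this length (9.64%), so the match describes the sequence and is not particular to KRT20.

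The libraries held 15941255 to 33866644 estimated counts in HT29 and 18863863 to 26436867 in SW1783, so that the limit used for a gene at 0, 3 counts, equals 0.0886 to 0.188 CPM, a count scaled to the size of its library. The 10 colorectal epithelial markers, among them EPCAM, CDH1 and VIL1, were all above 1 CPM in HT29, and only 1 of them, CLDN4, was above it in SW1783. Of the 10 astrocytic or mesenchymal glial markers, 7 were above 1 CPM in SW1783, including VIM, FN1 and COL1A2, while the astrocyte genes GFAP, S100B and AQP4 were at most 0.261, 0.253 and 0.0408 CPM in any SW1783 library. The astrocyte glutamate transporter SLC1A3 was at 5.58 to 50.1 CPM in SW1783 and at most 0.0419 in HT29, and the progenitor filament NES was at 2.74 to 11.2 CPM in SW1783. The markers of SW1783 were thus mixed, with several mesenchymal genes and SLC1A3 present and 3 defining astrocyte genes at or near 0. In HT29, high-dose replicate 2 stood apart from its group, with a chi-square per degree of freedom of 70.9 and 71.6 against replicates 1 and 3, whereas these differed from each other by 10.2. A batch A vehicle library and the batch B vehicle library that carries its number differed by 1.46 to 1.64, below the 1.68 to 71.6 within groups. Whether these vehicles came from separate cultures is not stated, and p-values measure the spread between libraries, which may be technical.

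In the vehicle libraries of batch B the lines used different keratins. Levels between genes are given here as CPM per kilobase of transcript. In HT29, KRT8 was the highest at 3679 ± 413 (SD, n = 3 here and for all group values), followed by KRT18 at 2522 ± 59.0, KRT19 at 358.7 ± 28.2, KRT20 at 135.8 ± 4.5 and KRT80 at 21.8 ± 0.32. KRT7, at 1.17 ± 0.23, and KRT23, at 1.11 ± 0.12, were the lowest, and their ranges overlapped, whereas those of the other neighbours in this order did not. The simple-epithelial pair and its gut partners thus made up nearly all keratin RNA of the colorectal line.

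In SW1783, KRT7 was the highest at 397.8 ± 6.0 CPM per kilobase and KRT18 was next at 160.7 ± 3.35. KRT80, at 11.6 ± 0.45, and KRT8, at 10.8 ± 0.19, followed, with ranges that lay close together without overlap. Pseudogene copies of KRT8, described below, held 20.5% ± 0.95 of the counts of KRT8 and its copies here. The order of KRT80 and KRT8 is therefore uncertain. KRT19 was at 0.340 ± 0.146 and KRT23 at 0.103 ± 0.051. KRT20 was at 0 counts in 17 of the 18 SW1783 libraries and at 1 count in the other. KRT18 therefore had far less KRT8 beside it in the astrocytoma line than in the colorectal line, and most of the type II keratin RNA was KRT7.

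**Figure D1:**
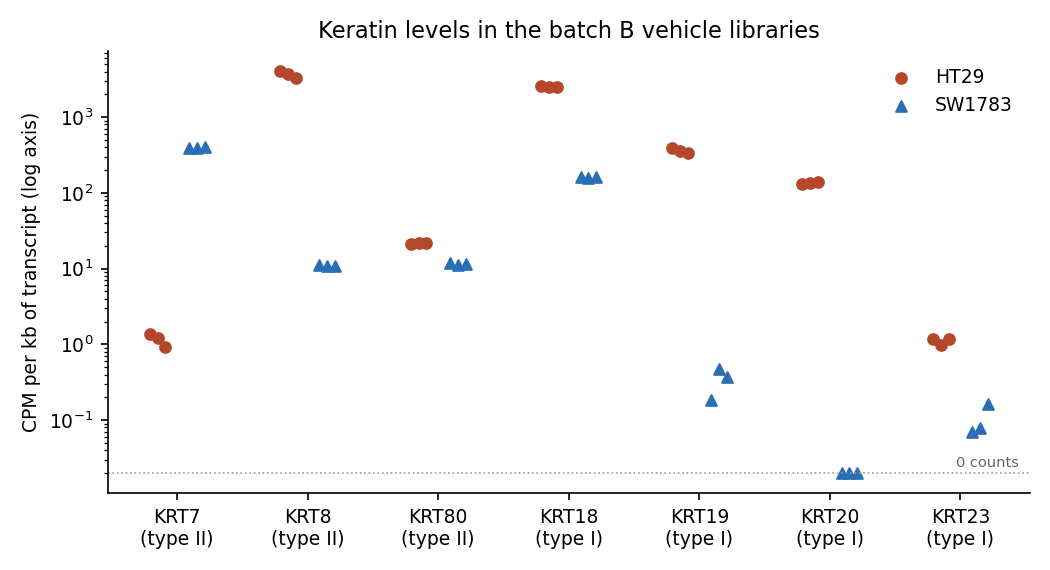
Level of each keratin in the 3 batch B vehicle libraries of HT29 (circles) and SW1783 (triangles), in CPM per kilobase of transcript on a log axis; libraries with 0 counts are drawn on the dotted line. KRT8, KRT18, KRT19 and KRT20 were higher in HT29, KRT7 was higher in SW1783, and KRT80 lay at 21.8 and 11.6.

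Between the vehicle libraries of the lines, all 7 keratins passed the threshold of adjusted p under 0.05 (DESeq2 Wald test, Benjamini-Hochberg adjustment over all genes tested, used throughout), in a comparison that called 64.1% of the genes tested. KRT7 was higher in SW1783 by 8.43 ± 0.13 (log2 fold change ± SE, as for all fold changes below), about 346-fold. KRT8 was lower in SW1783 at -8.40 ± 0.09 and KRT18 at -3.96 ± 0.10, or 337-fold and 15.5-fold, so the pair did not differ between the lines by the same factor. KRT19 was lower at -10.00 ± 0.28 and KRT23 at -3.42 ± 0.48. KRT80 differed least, at -0.89 ± 0.12. For KRT20, with 0 counts in the SW1783 vehicles, only a bound can be given. The lowest HT29 vehicle, at 238.2 CPM, was at least 1546-fold higher than 3 counts in the shallowest SW1783 vehicle.

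Near-identical processed copies matter for KRT8, KRT18 and KRT19, because reads may be split between a parent gene and its pseudogenes. The table listed 51 KRT8 copies, 67 KRT18 copies and 5 KRT19 copies. In SW1783 the KRT8 copies took 14.4% to 22.7% of the counts of KRT8 and its copies, and KRT8P12 held 50.2% of the copies' counts. In HT29 the same share was 0.652% to 0.87%. KRT18 copies took 0.337% to 1.58% in SW1783 and 0.0566% to 0.102% in HT29. KRT8 in SW1783 is therefore an uncertain level. With the copies added to the parent, KRT8 differed between the vehicle libraries of the lines by -8.07, against -8.40 without them. Its fold change at the high dose is given below also with the copies added.

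The high dose of ACD changed 4 of the 7 keratins in SW1783, and it changed them in opposite directions. KRT18, KRT8 and KRT7 fell and KRT80 rose. Fewer cells that express a keratin and less keratin RNA per cell cannot be told apart in such bulk libraries. At this dose 46.5% of all genes tested were called (22.6% lower, 23.9% higher), so 4 of the 6 keratins tested is not far from the background, and the sizes and the directions carry the description. KRT20 had no counts and could not be tested. KRT19, with 2 to 13 counts per batch B high-dose library, and KRT23, with 1 to 11, were tested but had log2 fold changes of -0.33 ± 0.67 and -0.02 ± 0.92, too imprecise to show a change of the size seen in the others.

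KRT18, the type I partner of the simple-epithelial pair, showed the largest change. Vehicle libraries held 4672, 4473 and 4655 normalized counts of it, and high-dose libraries 1646, 1571 and 1509. All high-dose libraries lay below all vehicle libraries. KRT18 fell by 1.55 ± 0.05 on the log2 scale (adjusted p = 1.34e-241), or 2.92-fold. The medium dose gave 3666, 3370 and 3350, a fall of 0.41 ± 0.04 (adjusted p = 2.92e-19), and the low dose gave 4115, 4011 and 3767. At the low dose KRT18 fell by 0.21 ± 0.04 (adjusted p = 0.000112), and it was the only keratin called there, where 3.29% of genes were called. KRT18 thus stepped down at each dose, and the groups did not overlap.

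KRT8, the type II partner, was at 398.6, 387.2 and 386.1 normalized counts in the vehicle and at 239.6, 247.8 and 287.1 at the high dose. The groups did not overlap, and KRT8 fell by 0.59 ± 0.10 (adjusted p = 5.53e-08), or 1.51-fold. With the pseudogene counts added to the parent the fall was 0.57 (adjusted p = 2.79e-09). At the medium dose, the values of 357, 370 and 387.3 overlapped the vehicle values, with a log2 fold change of -0.07 ± 0.10 (adjusted p = 0.653). At the low dose it was -0.13 ± 0.10 (adjusted p = 0.598). KRT8 thus differed from vehicle beyond its error at the high dose and at neither lower dose.

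KRT7, the most abundant keratin of this line, did not follow the dose in one direction. Vehicle libraries held 12930, 12990 and 13350 normalized counts and low-dose libraries 14040, 13370 and 12830, and the low dose did not pass the test (0.04 ± 0.03, adjusted p = 0.714). Medium-dose libraries held 15360, 16010 and 15060, all above the vehicle, and KRT7 rose by 0.24 ± 0.03 (adjusted p = 5.09e-11). High-dose libraries held 9391, 9944 and 10150, all below the vehicle. KRT7 fell there by 0.41 ± 0.03 (adjusted p = 2.51e-31), or 1.33-fold, which is under the 1.5-fold limit that the study set for differentially expressed genes (DEGs). The antisense gene KRT7-AS, which shares part of the locus, was at 158.8 to 167.6 in the vehicle, 253.5 to 294.4 at the medium dose and 136.6 to 153.2 at the high dose. Its part in the KRT7 counts was not tested.

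KRT80 was the only one of the 7 that rose at the high dose. It had 943.8, 870 and 910.6 normalized counts in the vehicle, 979.2, 1046 and 973.1 at the low dose, 1440, 1590 and 1687 at the medium dose, and 1868, 1932 and 1985 at the high dose. Each group lay wholly above the one before it. At the high dose KRT80 rose by 1.09 ± 0.06 (adjusted p = 2.13e-69), or 2.13-fold, and the medium dose gave a rise of 0.80 ± 0.06 (adjusted p = 7.4e-36). The low-dose difference of 0.14 ± 0.06 did not pass the test (adjusted p = 0.282), although the low-dose and vehicle libraries did not overlap.

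**Figure D2:**
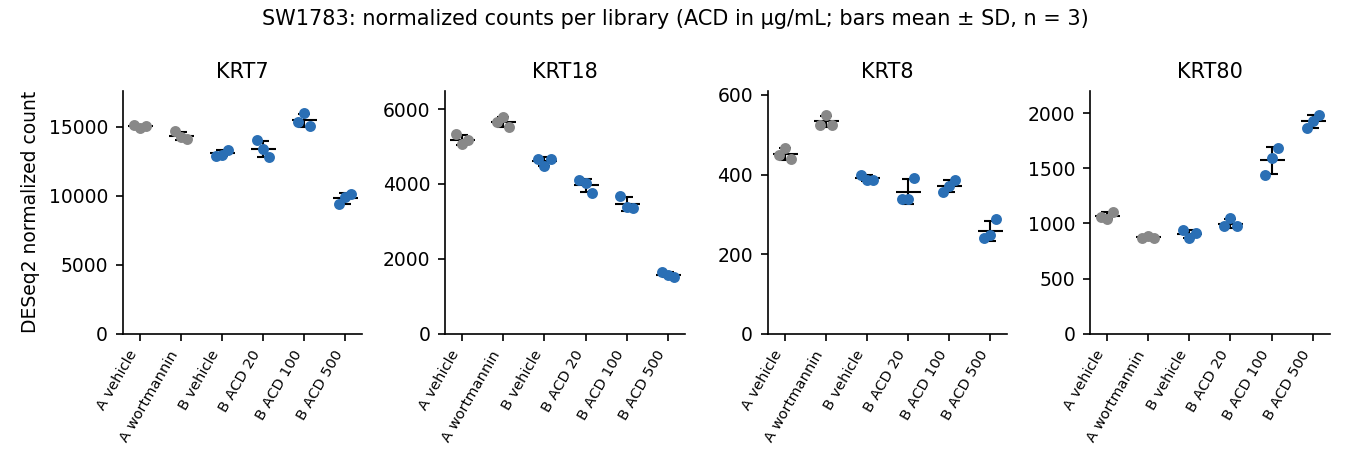
Normalized counts of KRT7, KRT18, KRT8 and KRT80 in every SW1783 library by group, with batch A in grey and batch B in blue and bars for the mean ± SD of 3 libraries; each batch was normalized in its own fit. KRT18 fell from 4473 to 4672 in the batch B vehicle to 1509 to 1646 at 500 µg/mL, while KRT80 rose from 870 to 943.8 to 1868 to 1985.

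Counted by the DEG rule, which asks for adjusted p under 0.05 and more than 1.5-fold, 3 of the keratins (KRT8, KRT18 and KRT80) were DEGs at the high dose in SW1783, where 18.2% of genes were, and 1 (KRT80) at the medium dose, where 3.81% were. At the medium dose 3 of the 4 keratins that received an adjusted p passed, KRT7 and KRT80 higher and KRT18 lower, against 29.5% of all genes tested (15.1% higher and 14.5% lower). The step from the medium to the high dose was tested directly and called the same 4 keratins, in a comparison that called 40.9% of genes. KRT7 fell by 0.66 ± 0.03 over this step (adjusted p = 1.5e-77), KRT8 by 0.52 ± 0.10 (adjusted p = 3.43e-06) and KRT18 by 1.14 ± 0.05 (adjusted p = 6.99e-127). KRT80 rose further, by 0.29 ± 0.06 (adjusted p = 3.2e-06). The steps down of KRT7 and KRT8 were therefore seen between 100 and 500 µg/mL. These comparisons share their libraries, so they are not independent of each other.

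The keratin make-up of SW1783 changed with these steps. Type I keratins, nearly all KRT18, made up 27.7% ± 0.44 of the summed CPM per kilobase of the 7 genes in the batch B vehicle, 24.4% ± 0.22 at the low dose, 19.5% ± 1.02 at the medium dose and 14.4% ± 0.97 at the high dose. KRT80 made up 1.99% ± 0.08, 2.24% ± 0.12, 3.22% ± 0.30 and 6.37% ± 0.04 in the same order. The ratio of type II to type I RNA was 2.54 to 2.66 in the vehicle libraries and 5.48 to 6.40 at the high dose. The sum of the 7 keratins was 581 ± 7.1 CPM per kilobase in the vehicle, 555 ± 20 at the low dose, 576 ± 9.7 at the medium dose and 357 ± 11 at the high dose. The summed RNA of these 7 keratins was thus lower at the high dose, and their excess of type II over type I larger. Other keratins of the line, among them KRT81 and KRT10, are outside these sums. Mitochondrial ribosomal RNA, which counts toward CPM but not toward these shares, was 0.912% to 0.96% of counts in the vehicle, 3.01% to 3.33% at the low dose, 7.67% to 8.05% at the medium dose and 5.76% to 6.06% at the high dose, and its part in the results was not tested.

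**Figure D3:**
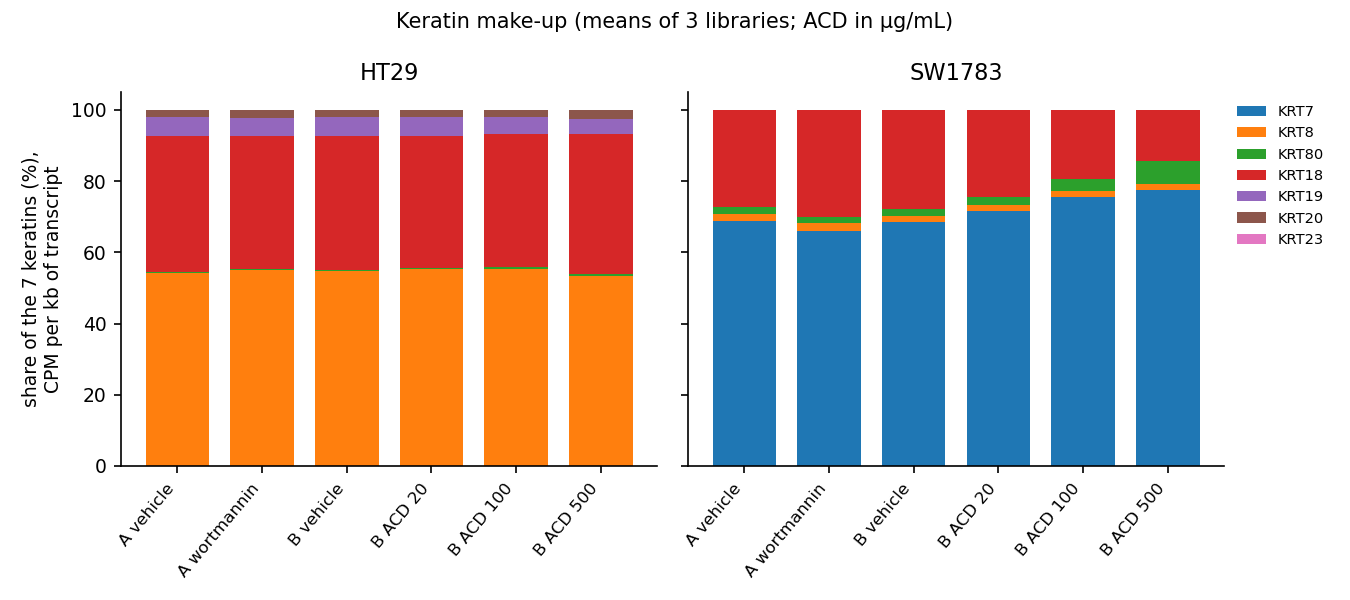
Share of each keratin in the summed CPM per kilobase of the 7 genes, as means of 3 libraries for each group of HT29 (left) and SW1783 (right). In HT29, KRT8 and KRT18 made up 53.4% to 55.4% and 37.2% to 39.4% in every group, whereas in SW1783 KRT18 went from 27.6% in the batch B vehicle to 14.3% at 500 µg/mL and KRT80 from 1.99% to 6.37%.

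In HT29, where the keratins are far more abundant, none of the 7 passed the test at the high, medium or low dose of ACD, nor between the high and the medium dose. DESeq2 called 7.62% of all genes tested at the high dose, 2.09% at the medium dose, 0.617% at the low dose and 1.7% between the high and medium doses. At an unadjusted p under 0.05, KRT19 and KRT20 were the keratins at the high dose and KRT19 and KRT80 those at the medium dose. edgeR's quasi-likelihood test also called none. DESeq2 fitted on only the medium-dose and vehicle libraries called KRT80 (0.30, adjusted p = 0.000258).

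KRT8 was at 176100, 153500 and 136500 normalized counts in the HT29 vehicle and at 155700, 154500 and 149600 at the high dose. The high-dose values lay inside the vehicle range, and the log2 fold change of -0.02 ± 0.09 had a 95% interval from -0.20 to 0.16. KRT18 was at 88470, 81640 and 82800 in the vehicle and at 81880, 111800 and 78360 at the high dose, where replicate 2 was the high value. Its log2 fold change was 0.10 ± 0.13, with an interval from -0.15 to 0.36. These intervals do not reach the falls of KRT8 and KRT18 seen in SW1783.

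KRT19 was at 13020, 11570 and 10810 in the vehicle, 10040, 9938 and 10730 at the medium dose and 9355, 10950 and 9197 at the high dose. The high-dose libraries overlapped the vehicle through replicate 2, and the log2 fold change was -0.26 ± 0.10 (adjusted p = 0.08). KRT20 was at 5759, 5647 and 5968 in the vehicle and at 6060, 8512 and 6336 at the high dose, with all high-dose values above the vehicle. Its log2 fold change was 0.27 ± 0.12 (adjusted p = 0.169), and replicate 2 was again the farthest. KRT80 was at 2003, 1981 and 1994 in the vehicle, 2563, 2357 and 2439 at the medium dose and 2641, 1681 and 2664 at the high dose. Its medium-dose libraries all lay above the vehicle, but the difference of 0.30 ± 0.15 did not pass the test (adjusted p = 0.433).

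These calls depended on single libraries, most of all on high-dose replicate 2. Without it, 3 keratins passed the test at the high dose in HT29. KRT80 was then higher by 0.41 (adjusted p = 4.79e-09), KRT19 lower, at -0.35 (adjusted p = 0.000215), and KRT23, a gene of 32 to 68 counts in the vehicle and high-dose libraries, also lower, at -0.78 (adjusted p = 0.0463). Without the same library, which also enters the estimate of the spread, KRT80 and KRT19 passed at the medium dose, by 0.30 (adjusted p = 1.73e-05) and -0.21 (adjusted p = 0.0437). KRT8 and KRT18 passed in neither case. At the high dose KRT19 also passed without vehicle replicate 3, at -0.32 (adjusted p = 0.0482), and KRT20 passed without high-dose replicate 1, at 0.36 (adjusted p = 0.0362). KRT7, at 22.9 to 65.0 normalized counts in the vehicle and high-dose libraries, had a log2 fold change of 0.01 ± 0.34, and its change could not be detected at this depth.

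**Figure D4:**
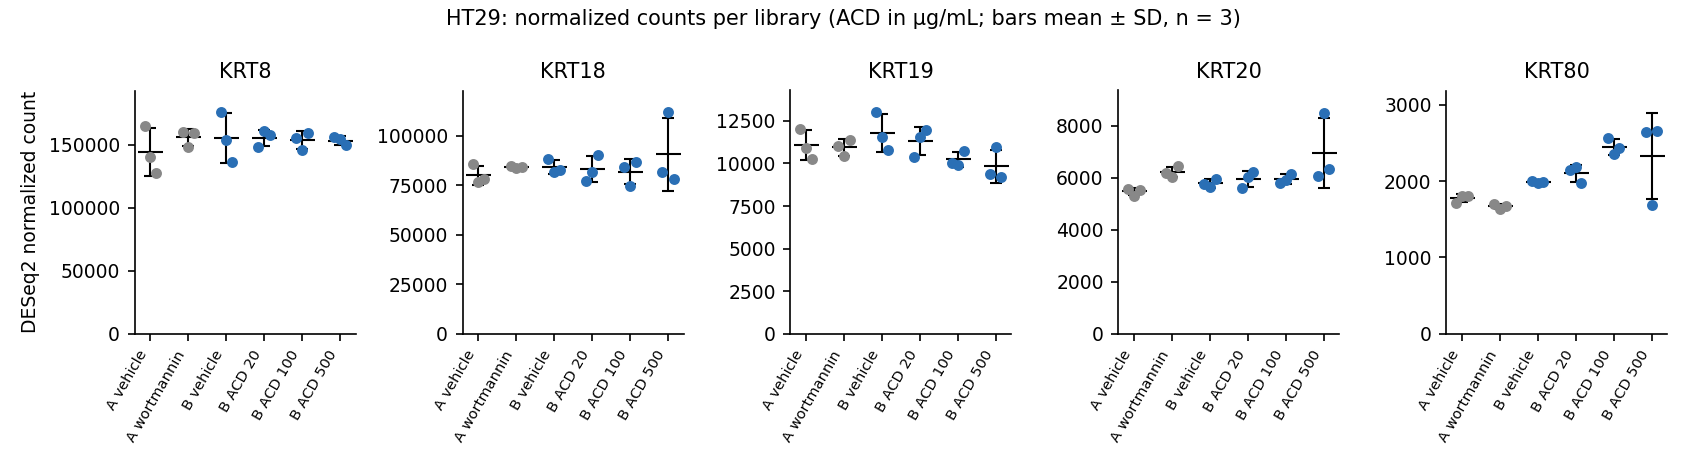
Normalized counts of KRT8, KRT18, KRT19, KRT20 and KRT80 in every HT29 library by group, with batch A in grey and batch B in blue and bars for the mean ± SD of 3 libraries. At 500 µg/mL, replicate 2 (the middle point) was the highest library for KRT18 at 111800 and KRT20 at 8512, and the lowest for KRT80 at 1681.

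Mitochondrial ribosomal RNA made up 11.3% to 12.5% of HT29 counts at the high dose against 1.14% to 1.22% in the vehicle, and its part in these values was not tested. The share of type I keratins was 45.0% ± 2.26 in the vehicle and 46.2% ± 4.41 at the high dose, which differed by less than their spread. KRT8 per KRT18, on the scale of CPM per kilobase, was 1.46 ± 0.14 and 1.37 ± 0.24.

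The difference in response between the lines was tested as an interaction term in a fit over both lines. At the high dose it called KRT18, KRT8 and KRT80, in a comparison that called 27.7% of genes. The response in SW1783 minus that in HT29 was -1.69 ± 0.14 for KRT18 (adjusted p = 5.98e-31), -0.62 ± 0.13 for KRT8 (adjusted p = 1.44e-05) and 0.81 ± 0.17 for KRT80 (adjusted p = 1.16e-05). Without HT29 high-dose replicate 2, the differences were -1.52, -0.62 and 0.63 and all 3 calls held. For KRT7 the difference was -0.45 ± 0.19 (adjusted p = 0.0685), and it passed without HT29 vehicle replicate 1 (-0.55, adjusted p = 0.0303) or high-dose replicate 1 (-0.75, adjusted p = 0.00113). At the medium dose KRT80 was called, with a difference of 0.47 ± 0.17 (adjusted p = 0.0479), where 10.4% of genes were called, and KRT18 lay just past the threshold, at -0.39 ± 0.14 (adjusted p = 0.0519). Both lie close to the threshold and changed sides under other settings. The KRT80 call was lost with edgeR (adjusted p = 0.102) and in 20 of the 24 fits that left out 1 library, with adjusted p up to 0.15.

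**Figure D5:**
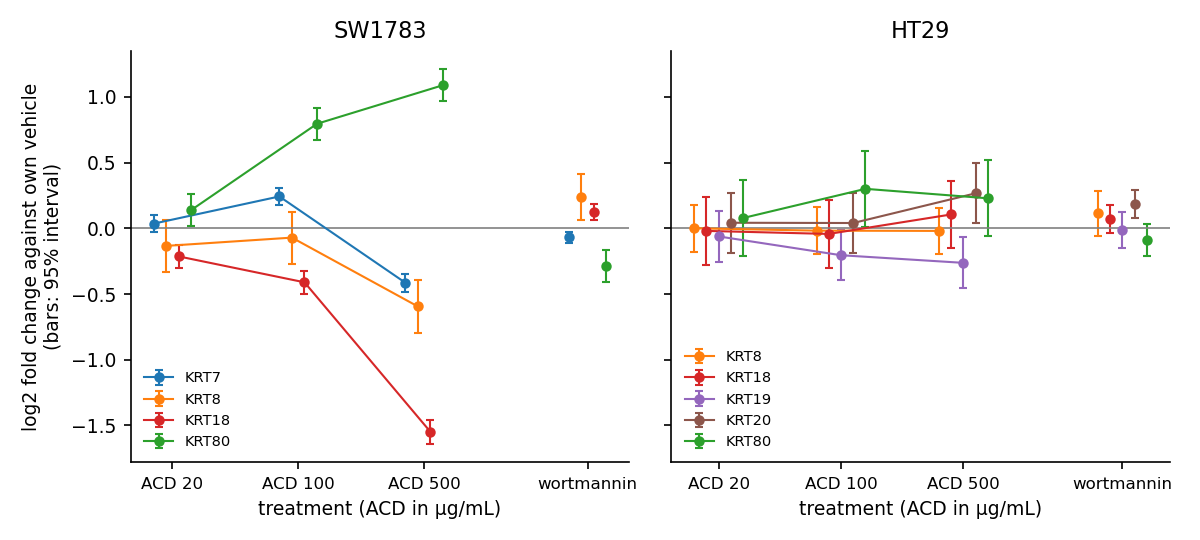
Log2 fold change of each keratin against the vehicle of its own batch, by ACD dose in µg/mL and for wortmannin, in SW1783 (left) and HT29 (right), with 95% intervals. In SW1783, KRT18 reached -1.55 and KRT80 1.09 at 500 µg/mL, while in HT29 the ACD values lay between -0.26 and 0.30; genes with fewer than 100 mean normalized counts are left out.

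Wortmannin gave small changes in both lines, none of them over 1.5-fold. In SW1783 it called the 4 keratins that received an adjusted p there, KRT7, KRT8, KRT18 and KRT80, in a comparison that called 33.9% of all genes tested. KRT80 went from 1061, 1044 and 1106 normalized counts in the batch A vehicle to 872.1, 887.5 and 871.4, a fall of 0.29 ± 0.06 (adjusted p = 3.9e-05). KRT18 went from 5322, 5064 and 5160 to 5660, 5797 and 5514, a rise of 0.13 ± 0.03 (adjusted p = 0.000355). The directions of both were opposite to those with high-dose ACD. KRT8 rose by 0.24 ± 0.09 (adjusted p = 0.0224), from 438.5 to 466.9 up to 525.1 to 550, and KRT7 fell by 0.07 ± 0.02 (adjusted p = 0.00542), from 14960 to 15160 down to 14160 to 14700. The KRT8 call was lost without any one of 5 of the 6 libraries, with adjusted p up to 0.124, and the KRT7 call without wortmannin replicate 2 (adjusted p = 0.0501) or replicate 3 (adjusted p = 0.0736).

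In HT29, wortmannin called KRT20 alone, against 18.7% of all genes. It held 5591, 5321 and 5515 normalized counts in the vehicle and 6191, 6038 and 6446 with wortmannin, a rise of 0.18 ± 0.05 (adjusted p = 0.00547). The groups did not overlap, but the call was lost without vehicle replicate 2 (adjusted p = 0.0742), wortmannin replicate 1 (adjusted p = 0.064) or wortmannin replicate 3 (adjusted p = 0.101). Without vehicle replicate 1, KRT8 and KRT18 also passed, by 0.22 (adjusted p = 0.0139) and 0.12 (adjusted p = 3.34e-06). KRT80 was 1716, 1801 and 1809 in the vehicle and 1706, 1639 and 1669 with wortmannin, a difference of -0.09 ± 0.06 that did not pass the test (adjusted p = 0.372). The interaction term for wortmannin called KRT80 alone, with a difference of -0.22 ± 0.07 (adjusted p = 0.0194), where 14.9% of genes were called. It was lost without any one of 5 of the 12 libraries, with adjusted p up to 0.0833.

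Of the 48 other keratins in a list of the family, 4 were above 1 CPM at the median of the SW1783 libraries, among them the hair keratin KRT81 and KRT10 of stratified epithelium, and 4 in HT29. KRT81, which lies in the same type II cluster as KRT7, was at 118 to 224 CPM in SW1783. It rose by 0.88 ± 0.04 (adjusted p = 3.27e-88) with the medium dose and by 0.21 ± 0.05 (adjusted p = 0.000185) with the low one. At the high dose its difference of 0.05 ± 0.05 was not called (adjusted p = 0.386). It thus shared with KRT7 the highest level at the medium dose. At the high dose 11 of the other keratins could be tested in SW1783, against 6 at the medium dose and 2 at the low one. At the high dose 5 were higher and none lower. The 45.5% called is close to the 46.5% of all genes, of which 23.9% were higher. KRT10 rose by 0.52 ± 0.08 (adjusted p = 3.05e-09). The other 4, named after their values were seen, were KRT75, KRT16, KRT34 and KRT17, of the hair follicle and of stressed or wounded epidermis, with mean normalized counts of 9.94 to 34.4. KRT75 rose by 4.23 ± 0.45 and KRT16 by 3.35 ± 0.63, and the rises of KRT34 and KRT17 were 2.08 ± 0.60 and 2.02 ± 0.39. In the SW1783 batch B vehicle these genes, in the same order, were at only 0.251, 0.16, 0.24 and 0.642 CPM. A fall in them could hardly have been called, so the counts of higher and lower are no result about the family. In HT29 none of the 48 passed at any ACD dose, and with wortmannin KRT10 fell by 0.57 ± 0.13 (adjusted p = 0.000314).

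Of the 15 other intermediate filament genes, 11 could be tested at the high dose in SW1783, 6 were lower and 2 higher, with a median of -1.04, where 22.6% of all genes were lower and 23.9% higher. The progenitor filament nestin (NES) fell by 1.73 ± 0.16 (adjusted p = 6.19e-26), the nuclear lamin LMNB1 by 1.62 ± 0.06 (adjusted p = 3.58e-188) and the muscle and glial filament synemin (SYNM) by 1.04 ± 0.14 (adjusted p = 1.12e-13). At the medium dose 4 of 8 were lower and 1, vimentin (VIM), was higher by 0.23 ± 0.03 (adjusted p = 2.64e-14). There 14.5% of all genes were lower and 15.1% higher. At the low dose, where 3.29% of genes were called, VIM alone passed, at 0.11 ± 0.03 (adjusted p = 0.00687). In HT29 none of the 6 tested passed at the high dose, where 7.62% of all genes were called. With wortmannin, where 18.7% of all genes were called, 3 of 4 were lower. These were the lamins, of which LMNB2 fell by 0.33 ± 0.05, LMNB1 fell by 0.27 ± 0.05 and LMNA fell by 0.17 ± 0.06. In SW1783, wortmannin lowered 4 of the 8 tested and raised none, where 33.9% of all genes were called. NEFL fell there by 0.76 ± 0.19, NES by 0.40 ± 0.13 and LMNB2 by 0.33 ± 0.03.

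Genes that anchor keratin filaments were called in both directions. Of the linkers and desmosome genes, 13 of 20 could be tested at the high dose in SW1783, of which 4 were higher and 2 lower, with a median of 0.13. Periplakin (PPL), which links filaments to the cell edge, fell by 0.98 ± 0.18 (adjusted p = 3.43e-07), while the keratin-binding protein FBF1 and plakophilin 4 (PKP4) rose by 0.48 ± 0.10 and 0.38 ± 0.06. At the medium dose 3 of 12 were higher, FBF1 by 0.42 ± 0.10, PKP4 by 0.28 ± 0.07 and desmoplakin (DSP) by 0.20 ± 0.07, and none was lower. The 25% called is near the 29.5% of all genes called at that dose, of which 15.1% were higher and 14.5% lower. All 8 hemidesmosome genes were tested at the high dose, with 4 higher and 2 lower and a median of 0.13. The shares called, 46.2% of the linkers and desmosome genes and 75% of the hemidesmosome genes, compare with 46.5% of all genes. The laminin chain LAMA3 rose by 0.67 ± 0.11, and dystonin (DST) fell by 0.47 ± 0.03. DST fell at each lower dose too, by 0.33 ± 0.03 and 0.10 ± 0.03. In HT29 none of these genes passed at any ACD dose. With wortmannin the integrin ITGB4, a hemidesmosome receptor, rose by 1.36 ± 0.06 in SW1783 (adjusted p = 3.34e-121) and by 0.29 ± 0.06 in HT29 (adjusted p = 3.41e-06). PPL rose by 0.65 ± 0.15 and 0.29 ± 0.07, but PKP3 fell by 0.37 ± 0.12 and 0.18 ± 0.07. JUP rose by 1.15 ± 0.17 in SW1783. Of the linkers and desmosome genes, 4 of 12 were higher and 2 lower in SW1783, and 3 of 15 higher and 1 lower in HT29. Of the 8 hemidesmosome genes, 2 were higher and 1 lower in each line. The shares called were 50% and 37.5% in SW1783 and 26.7% and 37.5% in HT29, against 33.9% and 18.7% of all genes.

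Among 18 regulators of epithelial identity, 17 were above 1 CPM at the median of the HT29 libraries and 4 in SW1783, while 7 of 7 mesenchymal regulators were above it in SW1783 and 1 in HT29. In SW1783 the high dose raised KLF4, a factor of differentiating epithelium, by 2.76 ± 0.12 (adjusted p = 1.43e-106) and KLF5 by 0.87 ± 0.07, and GATA6 fell by 0.38 ± 0.08. Of the 7 regulators tested in this list, 2 were higher and 2 lower, with a median of 0.03. Of the mesenchymal regulators 3 were higher and 3 lower. The shares called, 57.1% of the epithelial and 85.7% of the mesenchymal regulators, compare with 46.5% of all genes (23.9% higher, 22.6% lower). SNAI1, a repressor of epithelial genes, fell by 1.81 ± 0.12 (adjusted p = 1.41e-54), and the repressors ZEB2 and ZEB1 rose by 0.81 ± 0.09 and 0.76 ± 0.05. At the medium dose KLF4 rose by 1.39 ± 0.13, SNAI1 fell by 0.73 ± 0.10 and PRRX1 by 0.40 ± 0.04, and SNAI2 rose by 0.35 ± 0.05. In HT29, 2 of the 17 epithelial regulators tested were higher and 1 lower at the high dose, and 1 was higher and 1 lower at the medium dose, where 7.62% and 2.09% of all genes were called. The high dose raised OVOL1, an epithelial factor, by 0.55 ± 0.07 (adjusted p = 2.19e-11) and KLF4 by 0.42 ± 0.13 (adjusted p = 0.0186). OVOL1 was also higher at the medium dose, by 0.46 ± 0.07 (adjusted p = 1.74e-07). ATOH1, a factor of the secretory lineage of the gut that is named after its values were seen, fell by 1.28 ± 0.23 (adjusted p = 1.64e-06) at the high dose and by 0.72 ± 0.21 (adjusted p = 0.0386) at the medium dose.

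The genes whose pattern was most like that of each keratin were found by Pearson's r of log2(normalized count + 1) over the 18 libraries of a line, which share their treatments. In SW1783 the closest to KRT18 were the retinoic acid receptor RARB (r = 0.997) and the procollagen peptidase ADAMTS2 (r = 0.996), and those to KRT80 were the isoleucyl-tRNA synthetase IARS1 (r = 0.994) and the choline transporter SLC44A2 (r = 0.991). KRT8 was closest to LYPD6 (r = 0.977) and TGFB2 (r = 0.959), and KRT7 to the oxytocin receptor OXTR (r = 0.953) and AJUBA (r = 0.943). Among the keratins themselves, KRT8 and KRT18 had r = 0.899, KRT18 and KRT80 r = -0.89, and KRT7 and KRT18 r = 0.666. In HT29 the values were lower for the pair, with r = 0.456 for KRT8 and KRT18 and 0.81 for KRT18 and KRT20. KRT80 there was closest to SRPRA (r = 0.965) and LIMK1 (r = 0.939), and KRT19 to RASL11A (r = 0.912) and CARHSP1 (r = 0.91). In HT29 these values include high-dose replicate 2, the library that stood apart.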

How the data were processed

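RNA-seq was performed on 36 libraries in 12 groups of 3. Per the labels, directional mRNA libraries were read as 100 bp pairs on an MGI instrument. The authors' processing notes name FastQC 0.11.9, Trim Galore 0.6.5, STAR 2.7.3a and RSEM 1.3.3, and the methods give other versions for some of these. The deposited values are expected counts per Ensembl gene on a GRCh38 annotation, of which 8.84% are not whole, and they were rounded before testing. Symbols were matched for 56558 of 60675 genes. Positions and transcript lengths came from GENCODE 44.

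DESeq2 1.42.0 (R 4.3.3) was fitted per line and batch, and over both lines for interactions. A call is an adjusted p under 0.05, two-sided, over all genes of the comparison that pass DESeq2's independent filter. An adjusted p that DESeq2 did not give was left out of the counts. DEGs also needed a log2 fold change over 0.585. Intervals and floors at 3 counts cover counting error or library spread only. The DESeq2 fit was tested on simulated counts for the SW1783 high dose, HT29 wortmannin and the line difference at the high dose, and the other steps were not. The simulated counts had the same spread for every gene and no library that stood apart. They therefore do not cover a group such as the HT29 high dose. The alternatives were edgeR 4.0.16 (quasi-likelihood), TMM size factors, a filter of 10 counts in 3 libraries, fits on the groups compared, a replicate block, pseudogene counts added to parents, the DEG threshold and leaving out each library. The keratins and gene lists were chosen with earlier results of these data known. The rule for naming took from each list, per treatment comparison, up to 3 called genes whose normalized counts averaged 100 or higher, by size of change. A list's counts are given without a test of the list.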

Additional observations from a re-analysis of the deposited data

Results flagged for a closer look

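The response of 3 keratins to the high dose of ACD differed between the lines by the test of the interaction (DESeq2 Wald test, adjusted over all genes). The difference, as SW1783 minus HT29 on the log2 scale, was -1.69 ± 0.14 for KRT18 (adjusted p = 5.98e-31), -0.62 ± 0.13 for KRT8 (adjusted p = 1.44e-05) and 0.81 ± 0.17 for KRT80 (adjusted p = 1.16e-05). KRT80 also differed at the medium dose, by 0.47 ± 0.17 (adjusted p = 0.0479), and with wortmannin, by -0.22 ± 0.07 (adjusted p = 0.0194), but neither call was stable. The first was lost in 20 of 24 fits that left out 1 library (adjusted p up to 0.15) and with edgeR (adjusted p = 0.102), and the second in 5 of 12 such fits (adjusted p up to 0.0833). With groups of 3 libraries no single library was tested as an outlier.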

How the results depend on the processing

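The calls in SW1783 at the high, medium and low dose and between doses held under every alternative test, normalization and filter and without each library, with 4, 3, 1 and 4 keratins called. By the DEG threshold these counts were 3, 1, 0 and 2, and those for wortmannin fell to 0 in both lines. In HT29, fits on only the groups compared called 1 keratin (KRT80) at the medium dose. Leaving out 1 library gave 0 to 3 keratins called at the high dose and 0 to 2 at the medium dose in HT29, 0 to 3 with wortmannin in HT29, 2 to 4 with wortmannin in SW1783, 3 to 4 for the line difference at the high dose, 0 to 2 for that at the medium dose and 0 to 1 for that with wortmannin. The line difference at the medium dose called 0 with edgeR and 2 with the low-count filter, with pseudogene counts added or with only the groups compared, which added KRT18. With TMM size factors, 1 keratin call was gained and 1 was lost over all comparisons. Changes of sign occurred only for values that had not passed the test. KRT7 at the high dose in HT29 became -0.006 with edgeR, -0.01 with the block and 0 with TMM, and KRT8 at the low dose in HT29 became 0.011 with TMM, 0.004 with the block and 0.001 with pseudogene counts added. Leaving out 1 library turned the sign of the following log2 fold changes, whose ranges are given. In HT29 at the high dose these were KRT7 (-0.271 to 0.327), KRT8 (-0.105 to 0.08) and KRT18 (-0.075 to 0.2), at the medium dose KRT7 (-0.23 to 0.067), KRT8 (-0.103 to 0.083) and KRT18 (-0.085 to 0.02), and at the low dose KRT8 (-0.085 to 0.101), KRT18 (-0.084 to 0.032) and KRT19 (-0.12 to 0.016). Between the high and medium doses they were KRT7 (-0.189 to 0.409), KRT8 (-0.039 to 0.028), KRT18 (-0.031 to 0.243) and KRT80 (-0.179 to 0.114), and with wortmannin KRT19 (-0.066 to 0.048). For the line difference they were KRT19 (-0.585 to 0.275) and KRT23 (-1.154 to 0.966) at the high dose, KRT8 (-0.176 to 0.008), KRT19 (-0.388 to 0.229), KRT20 (-0.121 to 0.031) and KRT23 (-0.171 to 0.502) at the medium dose, and KRT8 (-0.002 to 0.179), KRT18 (-0.012 to 0.064) and KRT23 (-0.807 to 0.447) with wortmannin. The cause of these changes was not tested.

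Library numbers did not pair the samples in every fit. In batch A, 2 of 3 same-number pairs in HT29 and 0 of 3 in SW1783 correlated above 0.1 in their deviations from the group means. In batch B, 5 of 18 did in HT29, against 13 of 36 pairs with different numbers, and 5 of 18 in SW1783, against 0 of 36, where the 5 held all 3 pairs of the medium and low doses. Of the batch B libraries, 4 of 12 in HT29 and 8 of 12 in SW1783 correlated best with one of their own number. Some libraries of the same number thus shared part of their deviations in SW1783 batch B. With the replicate block, wortmannin called 0 keratins in HT29, where KRT20 had an adjusted p of 0.05, and 2 in SW1783, where KRT7 (adjusted p = 0.0594) and KRT8 (adjusted p = 0.163) no longer passed, the line difference 0 at the medium dose and 0 with wortmannin, and the other counts did not change. For SW1783 against HT29 in vehicle the block was not fitted, because the lines share no culture. The genes with the fewest counts, KRT7 and KRT23 in HT29 and KRT19 and KRT23 in SW1783, had errors of 0.27 to 0.95 at every ACD dose, so moderate changes were not detectable.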
